A study of Mus musculus with 16 samples.

Results

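The components of the cGAS-STING pathway were read in the kidneys of mice of 4 genotypes, as 7 genes out of the 22911 that could be named on the array. The genes were *Cgas* and *Sting1* (the DNA sensor and the receptor of the messenger it makes), and *Tbk1* and *Ikbke* (the kinases that act below STING). The others were *Trex1* (a DNA exonuclease) and *Samhd1* (a deoxynucleotide hydrolase), which restrain the pathway, and *Enpp1* (which breaks down its second messenger). A probe belonged to the set when the transcript it was designed on was a transcript of one of these genes, and 11 of the 56605 probes did. The level of a probe was set only against the same probe on other arrays, never against another probe.

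Each array held whole-kidney RNA of 1 mouse aged 6 months, with 4 mice in each of 4 groups. The WT mice (C57BL/6) carried neither change. The *Fcgr2b*-/- mice (labelled *Fcgr2b*-ko, 129/C57BL/6) lack the inhibitory Fc gamma receptor IIb and are the lupus model of the study. The double-deficient *Fcgr2b*-/-.*Sting* gt/gt mice (labelled *Fcgr2b*-ko.*Sting*-ko, 129/C57BL/6) also carry the goldenticket allele of *Sting*, which the *Sting* gt/gt mice (labelled *Sting*-ko, C57BL/6) carry alone. The study heads the heatmap columns of the lupus group *Fcgr2b*-/-.*Sting* wt/gt, where the labels name the *Fcgr2b* deletion only. Strain and *Fcgr2b* genotype cannot be told apart in these groups. Both deficiencies are present in every cell of the mouse, and whole kidney mixes its own cells with any cells that have entered it.

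cGAS binds double-stranded DNA in the cytosol and makes the cyclic dinucleotide cGAMP, which STING binds on the endoplasmic reticulum. STING then moves to the Golgi and recruits TBK1 and its relative IKK epsilon (the product of *Ikbke*), and the transcription factors IRF3 and NF-kappa B carry the signal to interferon and cytokine genes. In the kidney the pathway is known from tubular cells, from endothelium, and above all from macrophages and dendritic cells, and several of its own components are themselves induced by interferon.

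Values are the log2 of the background-subtracted brightness of a probe minus the log2 of the 75th percentile of its array, so that 0 is the brightness below which 75% of the probes of that array lie. In this scale a difference of 1 is 2-fold. The filter for the test with limma asked for a signal well above background on 4 or more of the 16 arrays. A call asked for a p under 0.05 after Benjamini-Hochberg adjustment over all probes tested, together with at least a 2-fold difference. Of the 11 probes, 10 passed the filter, and the remaining probe, a second one for *Ikbke*, was well above background on 0 arrays. In the bulk tissue, fewer cells of a type and less RNA per cell cannot be told apart.

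The labels were checked before the members were read. *Fcgr2b* was at 1.70 ± 0.43 (SD, n = 4) in WT, 0.25 ± 0.31 in *Fcgr2b*-/-, and −0.05 ± 0.39 in double-deficient kidneys. In the *Sting* gt/gt kidneys it was at 0.78 ± 0.73, and the array labelled *Sting* gt/gt replicate 4, at −0.19, lay among the *Fcgr2b*-deficient arrays. A second *Fcgr2b* probe was at −0.37 to 0.50 in WT and −1.82 to −0.58 in both *Fcgr2b*-deficient groups together. Both probes were well above background on all 4 arrays of each group, so this check reads a lower signal and not its absence. On the second probe the *Sting* gt/gt arrays were at −0.32, −0.53, −1.01, and −1.43, so replicates 3 and 4 both lay in the range of the deficient arrays. The *Sting* gt/gt differences of the members from WT and the interactions are therefore also given without replicate 3 and without replicate 4. The goldenticket allele is a point mutation, so a probe on the *Sting1* transcript does not check the *Sting* genotype. All 8 proximal tubule markers and all 5 podocyte markers were well above background on all 16 arrays. The arrays lay on 2 slides, and slide 1 held *Fcgr2b*-/- replicates 1, 2, and 4 but of the double-deficient group only replicate 1.

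*Sting1* and *Cgas*, the receptor and the sensor, shared a pattern in which 2 of the *Fcgr2b*-/- kidneys stood high. In the *Fcgr2b*-/- kidneys, taken in the order of their replicate numbers, *Sting1* was at 2.69, −0.12, −0.27, and 2.49, and in WT at 1.03, −1.35, −0.59, and −0.0050. It was at 0.14, 0.90, −0.09, and −0.57 in the double-deficient kidneys and at 1.01, 0.15, −0.10, and 0.11 in *Sting* gt/gt. *Fcgr2b*-/- replicates 1 and 4 were the 2 highest of the 16 arrays, while replicates 2 and 3 lay inside the WT range, so the groups overlapped.

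*Cgas*, on the brighter of its 2 probes, was at 0.57, −2.94, −2.5, and −1.21 in *Fcgr2b*-/- and at −1.35, −3.74, −3.24, and −2.76 in WT. It was at −2.87, −2.12, −2.23, and −2.94 in double-deficient kidneys and at −1.16, −2.68, −2.67, and −2.18 in *Sting* gt/gt. *Fcgr2b*-/- replicate 1 was again the highest array, and replicate 4 ranked 3 behind *Sting* gt/gt replicate 1. All 4 groups overlapped each other for both genes.

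*Tbk1* and *Ikbke* encode the kinases of the pathway. *Tbk1*, the main kinase of STING and of IRF3, held a narrow range in WT (0.05, −0.21, −0.62, and −0.25), *Fcgr2b*-/- (−0.87, −0.69, −0.31, and −0.39), and double-deficient kidneys (−0.28, 0.04, −0.42, and −0.04). In *Sting* gt/gt it was at −0.47, −0.35, −0.96, and −2.35, and the lowest of these was replicate 4. *Fcgr2b*-/- replicates 1 and 4, which were high for *Sting1*, ranked 14 and 9 of 16 for *Tbk1*.

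*Ikbke*, whose product phosphorylates IRF3 as TBK1 does, was at −2.39, −4.00, −3.59, and −2.52 in *Fcgr2b*-/- and at −4.76, −4.59, −4.12, and −4.09 in WT. All 4 *Fcgr2b*-/- arrays lay above all 4 WT arrays, although replicate 2 of each of these groups was not well above background. The double-deficient kidneys were at −3.86, −3.67, −3.92, and −4.24, overlapping both groups, and their spread (SD 0.24) was the smallest of the 4 groups. In *Sting* gt/gt it was at −4.42, −4.11, −5.12, and −6.52, with replicates 3 and 4 not well above background.

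*Trex1*, the exonuclease that degrades cytosolic DNA, was at 3.24, 2.66, 2.14, and 3.45 in *Fcgr2b*-/- and at 1.41, 1.81, 2.35, and 2.21 in WT. Replicates 4, 1, and 2 of *Fcgr2b*-/- were the 3 highest arrays of the 16, and replicate 3 fell inside the WT range. *Trex1* was at 2.26, 1.46, 2.55, and 1.96 in double-deficient kidneys and between 2.10 and 2.36 in *Sting* gt/gt, the tightest group (SD 0.11).

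*Samhd1*, which hydrolyses deoxynucleotides, was at 3.25, 1.33, 1.24, and 2.56 in *Fcgr2b*-/- and at 1.34, 0.63, 1.28, and 1.38 in WT. It was at 1.17, 0.78, 1.51, and 0.86 in double-deficient kidneys and at 1.87, 1.31, 1.60, and 1.40 in *Sting* gt/gt. *Fcgr2b*-/- replicates 1 and 4 were the 2 highest arrays, as they were for *Sting1* and *Ikbke*.

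*Enpp1*, the ectonucleotidase that hydrolyses cGAMP outside the cell, spanned less than any other member. It was at 0.98, 1.42, 0.98, and 0.99 in WT, 0.71, 1.17, 0.87, and 0.84 in *Fcgr2b*-/-, and 1.11, 1.26, 0.96, and 1.14 in double-deficient kidneys. In *Sting* gt/gt it was at 0.76, 0.92, 0.70, and 0.90, and all 4 arrays lay below all 4 WT arrays.

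**Figure D1:**
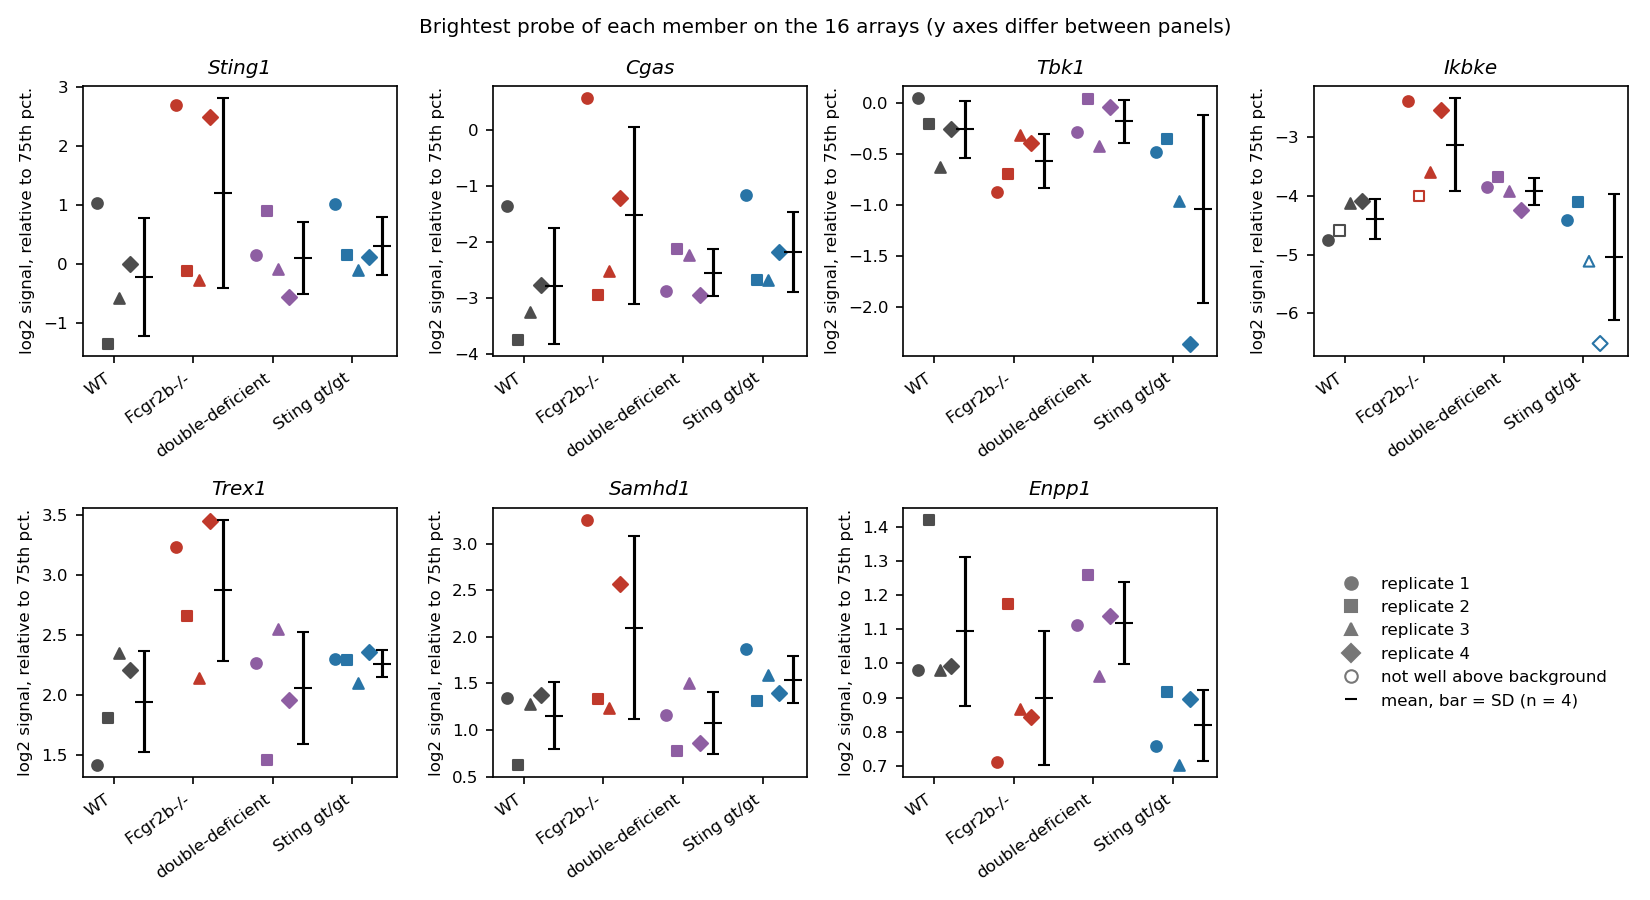
Log2 signal of the brightest probe of each member over the 75th percentile of that array (y axis), by genotype (x axis), with 1 point per mouse, the mark giving the replicate, open marks probes not well above background, and bars the mean and SD (n = 4). For *Sting1*, *Ikbke*, and *Samhd1* the circle and the diamond of the *Fcgr2b*-/- group (replicates 1 and 4) are the 2 highest points, and for *Tbk1* and *Ikbke* the diamond of *Sting* gt/gt (replicate 4) is the lowest.

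The first comparison asked which components differ in the lupus kidney. Of the 10 member probes tested, limma called 0 between *Fcgr2b*-/- and WT, where it called 18 of all 35628 probes (0.0505%). At an unadjusted p under 0.05 there were 4 member probes, and 3.35% of all probes passed. The 4 were the brightest probes of 4 genes, each with a higher mean in *Fcgr2b*-/-. The log2 difference was 1.42 (95% interval 0.01 to 2.84) for *Sting1*, 1.26 (0.27 to 2.26) for *Ikbke*, 0.93 (0.25 to 1.60) for *Trex1*, and 0.94 (0.12 to 1.77) for *Samhd1*, and the adjusted p from limma was 0.9996 for each. *Cgas* had a difference of 1.25 with an interval that crossed 0 (−0.16 to 2.67).

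*Tbk1* (−0.31, 95% interval −1.07 to 0.45) and *Enpp1* (−0.19, 95% interval −0.60 to 0.22) had lower means in *Fcgr2b*-/-. The interval of *Enpp1* leaves out a 2-fold difference in either direction, whereas that of *Tbk1* reaches just past a 2-fold lower level. The median difference over the 7 genes was 0.94, where that of all probes tested was −0.06. *Ikbke* was the only member whose groups did not overlap, by its brighter probe, and 0.62% of all probes had all 4 *Fcgr2b*-/- arrays above all 4 WT arrays. The two-tailed exact Mann-Whitney test that the methods of the study name gave p = 0.029 for *Ikbke*, the smallest p that 4 against 4 allows, and 0.11 to 0.49 for the other 6 genes.

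Single arrays moved some of these differences more than others. Without *Fcgr2b*-/- replicate 1, the difference from WT was 0.93 for *Sting1*, 0.56 for *Cgas*, and 0.56 for *Samhd1*, whereas it was 1.02 for *Ikbke* and 0.81 for *Trex1*. Without replicate 4 it was 1.06 for *Ikbke* and 0.74 for *Trex1*. The slides differed as well. Within slide 1 it was 1.85 for *Sting1*, 1.35 for *Cgas*, 1.70 for *Ikbke*, 1.51 for *Trex1*, and 1.40 for *Samhd1*. Within slide 2, where *Fcgr2b*-/- has replicate 3 alone, it was 0.02, 0.50, 0.51, −0.13, and −0.09 for the same genes. With slide as a block the 5 differences were 1.27, 1.14, 1.15, 0.90, and 0.89. With normexp background correction the *Ikbke* difference was 0.49 and that of *Cgas* 0.83, a correction in which dim signals are drawn together.

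The second comparison asked which components differ when *Sting* is deficient in the lupus mice. Between double-deficient and *Fcgr2b*-/- kidneys, limma called 0 of the 10 member probes and 0 of all 35628 probes (0%). At an unadjusted p under 0.05 it gave 2 member probes, and 1.81% of all probes. Both had lower means in double-deficient kidneys, each with an adjusted p from limma of 0.9999. The difference was −0.815 (95% interval −1.49 to −0.14) for *Trex1* and −1.02 (−1.84 to −0.20) for *Samhd1*. *Sting1* (−1.10), *Cgas* (−1.02), and *Ikbke* (−0.79) had lower means as well, with 95% intervals that crossed 0, from −2.51 to 0.31, −2.44 to 0.40, and −1.79 to 0.20. *Tbk1* (0.39) and *Enpp1* (0.22) had higher means. The median over the 7 genes was −0.815, against 0.06 over all probes.

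Some mice of these groups share the first number of their animal label, *Fcgr2b*-/- replicates 3 and 4 with double-deficient replicates 4 and 3. WT replicates 3 and 4 share a first number as well. The labels do not say what the number marks. With that number as a random block in limma, 10.1% of all probes passed at an unadjusted p under 0.05 and 0 were called. The differences were then −1.33 for *Sting1*, −0.81 for *Cgas*, −0.95 for *Ikbke*, −0.62 for *Trex1*, and −0.81 for *Samhd1*. Their adjusted p by limma ran from 0.222 for *Samhd1* to 0.472 for *Cgas*. Between *Fcgr2b*-/- and WT the same block left 3 of all probes called in place of 18. There 2.31% of all probes passed at an unadjusted p under 0.05, in place of 3.35%.

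This comparison shares its *Fcgr2b*-/- arrays with the first, so replicates 1 and 4 enter both with opposite sign. No member had groups that did not overlap, and 1.02% of all probes did, counted in either direction. Without *Fcgr2b*-/- replicate 1 the difference was −0.60 for *Sting1*, −0.32 for *Cgas*, and −0.63 for *Samhd1*, and without replicate 4 it was −0.67 for *Sting1*. With normexp background correction the *Ikbke* difference was −0.39. Within slide 1, where the double-deficient group has replicate 1 alone, it was −1.54, −1.68, −0.88, −0.85, and −1.22 for *Sting1*, *Cgas*, *Ikbke*, *Trex1*, and *Samhd1*. Within slide 2 it was 0.36, 0.07, −0.35, −0.15, and −0.19, so *Sting1* and *Cgas* turned direction. Against WT, the double-deficient kidneys had 0 members called (0% of all probes) and 0 at an unadjusted p under 0.05 (0.424% of all probes).

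The third comparison asked what the goldenticket allele alone goes with. Between *Sting* gt/gt and WT, limma called 0 member probes and 0 of all probes (0%). *Tbk1* was the single member at an unadjusted p under 0.05, with a difference of −0.78 (95% interval −1.54 to −0.02, adjusted p = 0.732 by limma), where 3.76% of all probes passed. Without the array labelled *Sting* gt/gt replicate 4 the *Tbk1* difference was −0.34, without replicate 3 it was −0.80, and without replicate 2 it was −1.01. With normexp background correction it was −0.50. *Ikbke* was at −0.65 (95% interval −1.64 to 0.35). This became −0.16 without replicate 4, −0.62 without replicate 3, −0.96 without replicate 2, and −0.051 with normexp background correction. Within slide 1, which does not hold replicate 4, the *Ikbke* value was 0.41. *Enpp1* differed by −0.27 (95% interval −0.68 to 0.14, adjusted p = 0.732), with groups that did not overlap, as 1.45% of all probes did in that direction. *Sting1*, the mutated gene itself, differed by 0.52 (95% interval −0.89 to 1.94), and *Cgas* by 0.60, *Trex1* by 0.32, and *Samhd1* by 0.39.

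Without replicate 4 these were 0.58 for *Sting1*, 0.60 for *Cgas*, 0.28 for *Trex1*, 0.43 for *Samhd1*, and −0.30 for *Enpp1*. In the same order they were 0.65, 0.77, 0.37, 0.37, and −0.24 without replicate 3. Without replicate 2 they were 0.57, 0.77, 0.31, 0.46, and −0.31. Other arrays moved them more. *Sting1* was at 0.94 without WT replicate 1, 0.15 without WT replicate 2, and 0.28 without *Sting* gt/gt replicate 1, and *Cgas* was at 1.08, 0.28, and 0.27 without the same arrays and 0.285 with normexp background correction. *Trex1* was at 0.14 without WT replicate 1, and without WT replicate 2 *Samhd1* was at 0.21 and *Enpp1* at −0.17.

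**Figure D2:**
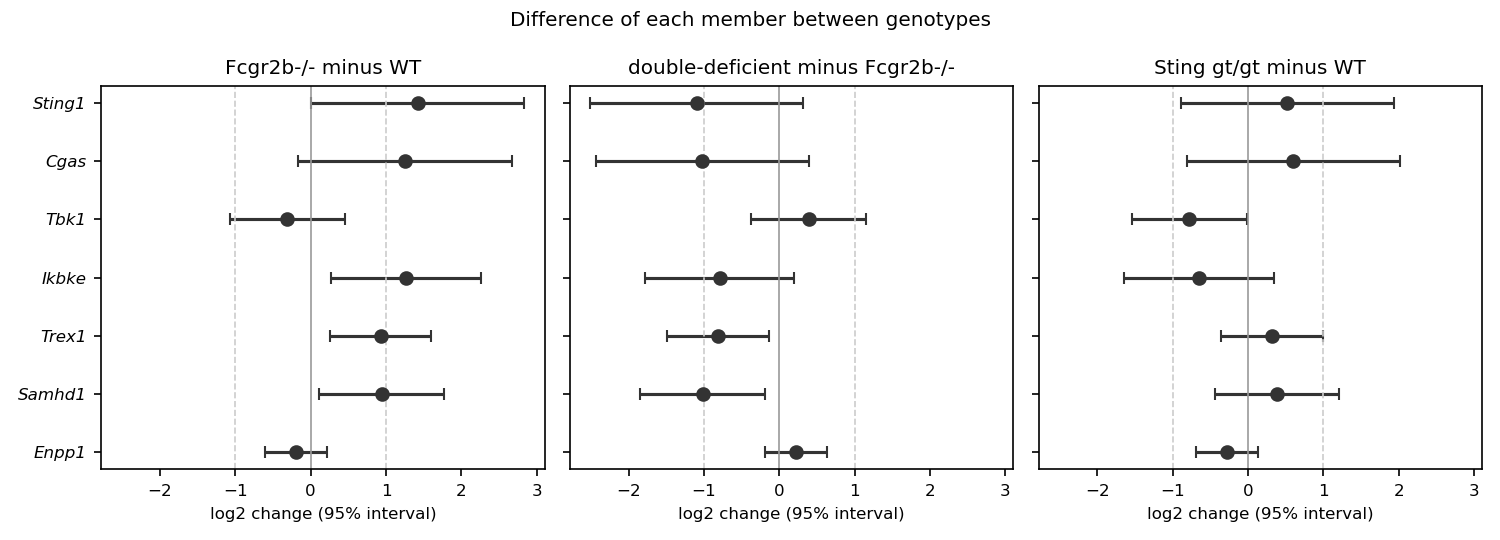
Log2 difference of the brightest probe of each member (x axis, point with its 95% interval from limma over 16 arrays) in 3 comparisons of genotypes, with dashed lines at a 2-fold difference. In the left panel *Sting1*, *Ikbke*, *Trex1*, and *Samhd1* have intervals above 0, in the middle panel *Trex1* and *Samhd1* have intervals below 0, and in the right panel *Tbk1* does (−1.54 to −0.02), none of them called after adjustment.

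Whether the difference between *Sting* genotypes depends on *Fcgr2b* was tested as an interaction, the *Sting* difference in *Fcgr2b*-deficient mice minus that in mice with *Fcgr2b*. If the lupus mice are *Sting* wt/gt, as the study heads them, *Sting* gt/gt is set against heterozygous mice in the former and against WT in the latter. The same limit holds for the averages that follow. In the first comparison heterozygous mice would then be set against WT, and in the second *Sting* gt/gt mice against heterozygous ones. The interaction gave 0 members called, as for all probes (0%), and 3 members at an unadjusted p under 0.05, with 6.27% of all probes. These were *Samhd1* (−1.40, 95% interval −2.57 to −0.24), *Trex1* (−1.13, −2.09 to −0.18), and *Tbk1* (1.17, 0.09 to 2.24), each with an adjusted p of 0.661 by limma. *Sting1* and *Cgas* both stood at −1.62 (SE 0.94), *Enpp1* at 0.49, and *Ikbke* at −0.14, whose direction turned between settings. Without *Sting* gt/gt replicate 4 the value was 0.73 for *Tbk1*, −1.45 for *Samhd1*, −1.10 for *Trex1*, −1.68 for *Sting1*, −1.62 for *Cgas*, 0.52 for *Enpp1*, and −0.64 for *Ikbke*. Without replicate 3 it was 1.19, −1.39, −1.19, −1.75, −1.79, 0.46, and −0.17 in the same order. Without replicate 2 it was 1.39, −1.48, −1.12, −1.67, −1.79, 0.53, and 0.17, again in that order. The *Cgas* value was −0.92 without *Fcgr2b*-/- replicate 1.

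Averaged over both *Fcgr2b* genotypes, *Sting* deficiency gave 0 members called (0% of all probes) and 1 at an unadjusted p under 0.05 (0.716% of all probes). This was *Ikbke*, at −0.72 (95% interval −1.42 to −0.02, adjusted p = 1 by limma). It was at −0.47 without *Sting* gt/gt replicate 4, −0.88 without replicate 2, and −0.22 with normexp background correction. *Sting1* itself was at −0.29 (95% interval −1.29 to 0.71). It stayed below 0 with each array left out but moved more than 1.5 times with 7 of them, to −0.039 without *Fcgr2b*-/- replicate 1, −0.073 without replicate 4, −0.51 without replicate 2, and −0.53 without replicate 3. It was at −0.078 without WT replicate 1, −0.48 without WT replicate 2, and −0.18 without double-deficient replicate 4. Averaged over both *Sting* genotypes, *Fcgr2b* deficiency gave 0 members called, where 0.0674% of all probes were, and *Ikbke* alone at an unadjusted p under 0.05 (1.66% of all probes). *Ikbke* was higher by 1.19 (95% interval 0.49 to 1.89, adjusted p = 0.944 by limma). The value was 0.94 without *Sting* gt/gt replicate 4, 1.35 without replicate 2, and 0.32 with normexp background correction.

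*Cgas*, *Ikbke*, and *Samhd1* had more than 1 probe on the array. The dimmer probe of *Cgas*, on the same transcript and well above background on 14 arrays, differed by 0.28 between *Fcgr2b*-/- and WT, against 1.25 for the brighter. Between double-deficient and *Fcgr2b*-/- kidneys it differed by 0.02, against −1.02, so the 2 probes differed in sign there. On that probe *Fcgr2b*-/- replicate 1 was still the highest array, at −2.04, but replicate 4 ranked 10.

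For *Samhd1*, the brightest probe was designed on another transcript variant than the other 2 probes. All 3 had *Fcgr2b*-/- replicates 1 and 4 as the 2 highest arrays. The differences between *Fcgr2b*-/- and WT were 0.94, 0.69, and 0.62, and those between double-deficient and *Fcgr2b*-/- were −1.02, −0.61, and −0.51. In *Sting* gt/gt against WT the brightest probe was at 0.39 and the others at 0.01 and −0.14, so the sign there rested on the probe chosen.

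**Figure D3:**
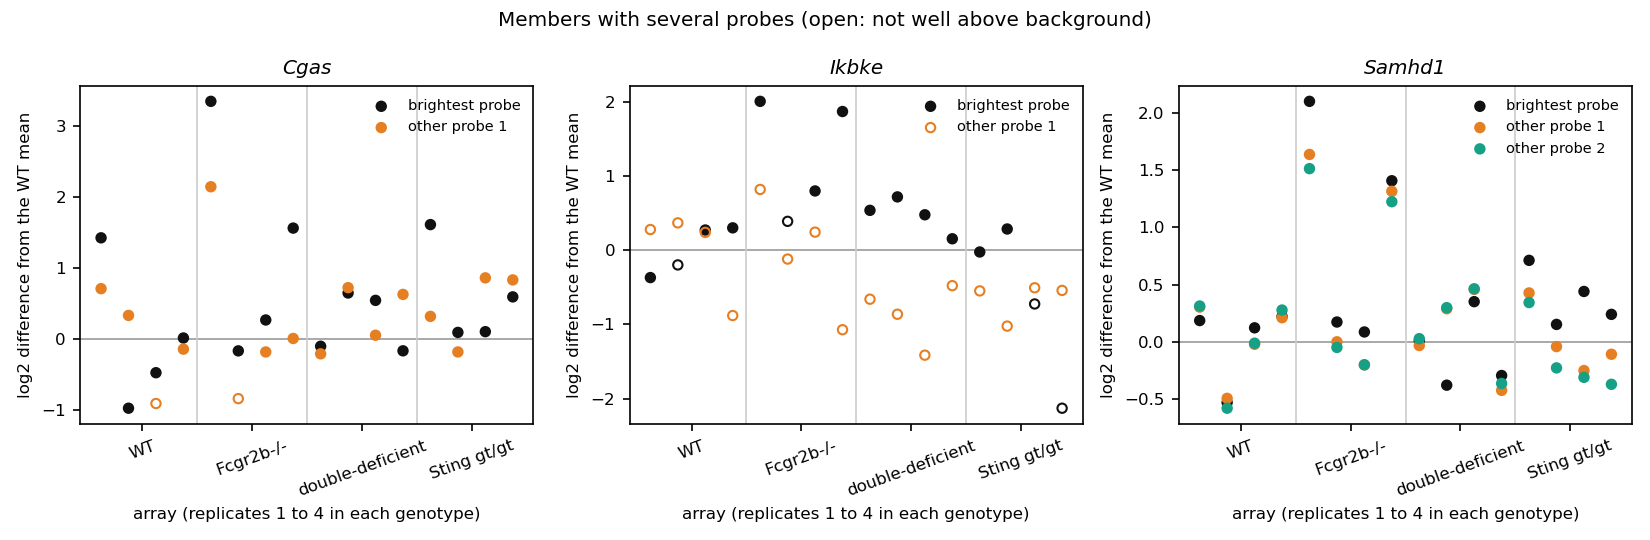
Log2 difference from the WT mean of the same probe (y axis) on each array (x axis, replicates 1 to 4 within each genotype) for the members with several probes, with open marks for probes not well above background. The 3 *Samhd1* probes are all highest on *Fcgr2b*-/- replicates 1 and 4, whereas the dimmer *Cgas* probe is highest on replicate 1 and at 0.01 on replicate 4, and the dimmer *Ikbke* probe is not well above background on any array.

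On *Fcgr2b*-/- replicates 1 and 4, *Sting1*, *Cgas*, *Trex1*, and *Samhd1* stood high. These arrays were the highest of their group for podocyte and endothelial markers, and high for immune cell markers and interferon-inducible genes. *Trex1* departed from this on other arrays, since it ranked 3 on *Fcgr2b*-/- replicate 2, where the interferon score was −0.03, and 16 on WT replicate 1, where that score was 0.95. A list of 56 interferon-inducible genes, 53 of them tested and none of them a member, was scored on each array as the mean log2 difference from the WT mean. The score was 2.18, −0.03, −0.38, and 1.55 in *Fcgr2b*-/- replicates 1 to 4, −0.76 to 0.95 in WT, −0.62 to 0.37 in double-deficient kidneys, and −0.10 to 1.14 in *Sting* gt/gt. In *Fcgr2b*-/- against WT, 10 of its genes were higher at an unadjusted p under 0.05, which 3.35% of all probes passed, and 0 were called. This list and the marker lists were chosen with earlier results of these data known, so such counts are a description only.

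The score of 10 macrophage markers, which include *Csf1r* and *Adgre1*, was 3.19, 0.96, 0.81, and 2.99 in *Fcgr2b*-/- replicates 1 to 4. It was −0.63 to 1.15 in WT, 0.22 to 1.42 in double-deficient kidneys, and 0.00 to 1.30 in *Sting* gt/gt, and 9 of the 10 genes were higher in *Fcgr2b*-/- at an unadjusted p under 0.05 (again against 3.35% of all probes), with 0 called. *Fcgr2b*-/- replicates 1 and 4 were also highest of their group for 7 T cell markers (2.0 and 1.30), 7 dendritic cell markers (1.95 and 1.40), and 5 neutrophil markers (2.52 and 1.23). The proximal tubule score was −1.48 and −0.57 on these 2 arrays, against −0.34 to 0.28 in WT. The score of 8 endothelial markers was 1.5 on WT replicate 1 and 1.61 on *Sting* gt/gt replicate 1, which were the next highest arrays for *Sting1* after these lupus kidneys. On *Sting* gt/gt replicate 3, however, the endothelial score was 1.01, and that array ranked 11 for *Sting1*. Other scores were also raised on WT replicate 1 and *Sting* gt/gt replicate 1, at 1.15 and 1.30 for macrophage markers and 0.95 and 1.14 for interferon-inducible genes. Of the B and plasma cell markers, *Cd79a* was well above background on no array, and the list ran from −0.42 to 1.11 in *Fcgr2b*-/- and −0.99 to 1.83 in WT. Fat markers ranged widely in all groups, from −2.68 to 2.66. They were highest on *Fcgr2b*-/- replicate 1 (2.66), WT replicate 1 (2.63), and *Sting* gt/gt replicate 1 (1.59). In that order these arrays ranked 1, 3, and 4 for *Sting1* and 1, 4, and 2 for *Cgas*. On *Fcgr2b*-/- replicate 4, which ranked 2 for *Sting1* and 3 for *Cgas*, the fat score was −1.51. Podocyte markers ranged from −0.62 to 1.46, and in *Fcgr2b*-/- replicates 1 to 4 they were at 1.46, 0.29, 0.56, and 1.03. Red cell markers ranged from −0.74 to 0.86. What part these cells have in the differences of the members was not tested.

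**Figure D4:**
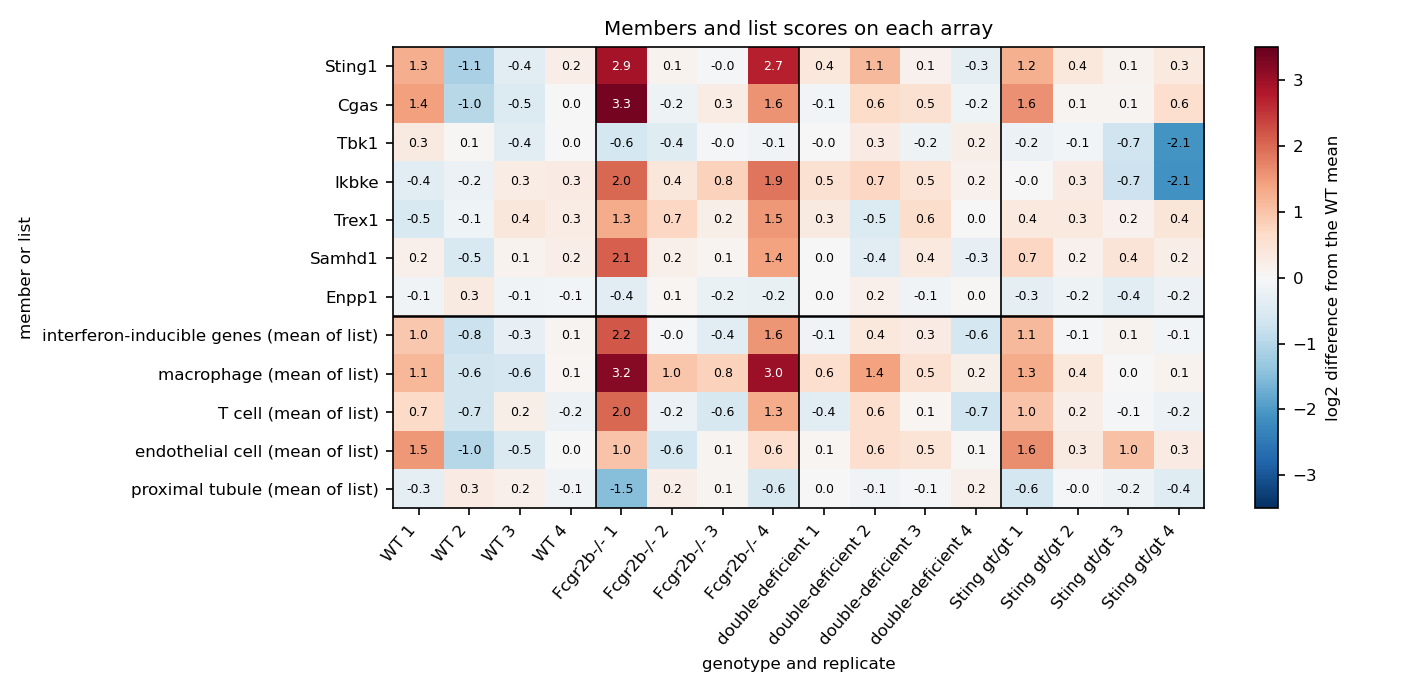
Log2 difference from the WT mean (colour and number) of each member by its brightest probe and of the mean of 5 gene lists, on each of the 16 arrays (columns, by genotype and replicate). *Fcgr2b*-/- replicates 1 and 4 are high for *Sting1*, *Cgas*, *Ikbke*, *Trex1*, *Samhd1*, and the interferon, macrophage, and T cell lists, whereas *Tbk1* and *Enpp1* are at or below 0 there. The endothelial list is at 1.0 and 0.6 on these arrays.

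The genes most like each member over the 16 arrays gave a further description of what the members went with. Among 13836 named genes well above background on all arrays (13837 for *Ikbke*), Pearson's r with *Sting1* was highest for *Arhgdib* (0.980), *Lpcat2* (0.977), and *Vcam1* (0.977), and with *Cgas* for *Ptger4* (0.984), *Runx1* (0.982), and *Fstl1* (0.976). *Vcam1* is an adhesion molecule for leukocytes. *Samhd1* was closest to *Oas1a* (0.963), *Oas1f* (0.961), and *Irf7* (0.955), all genes of the interferon response. *Trex1* was closest to *Unc119* (0.953), *Colgalt1* (0.951), and *Tubb5* (0.928).

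*Tbk1* had other neighbors, *Spryd7* (0.965), *Gcc2* (0.965), and *Sft2d1* (0.961), of which the latter pair belong to Golgi traffic. *Ikbke* was closest to *Cxcl16* (0.910), a chemokine of macrophages, then *Mcm5* (0.882) and *H2-Q10* (0.871). *Enpp1* was closest to *Padi1* (0.902), *Actr3b* (0.902), and *Gm34086* (0.891). Genes with r of at least 0.9 numbered 369 for *Cgas* and 289 for *Sting1* but 1 for *Ikbke* and 2 for *Enpp1*. The points of each correlation share their arrays and genotypes, and a few arrays with wide spread weigh most.

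The rest of the pathway was read as 123 further genes in 7 lists, of which 121 had a probe and 113 were tested. Between *Fcgr2b*-/- and WT, 1 of the 113 was called, where 0.0505% of all probes were. At an unadjusted p under 0.05, 13 were higher and 1 lower, 12.4% of the list against 3.35% of all probes. The lists were chosen with earlier results of these data known, so their shares are a description only. The called gene was *Ifi202b*, a DNA-binding protein of the p200 family. It was at 3.27, −0.23, −1.06, and 1.94 in *Fcgr2b*-/-, −0.52, 0.69, −0.39, and −1.47 in double-deficient kidneys, and not well above background on any WT array. The *Fcgr2b*-/- kidneys were at least 53.5-fold higher than WT by this probe (adjusted p = 0.018 by limma), counting the WT arrays at no less than the dimmest signal well above background. In *Sting* gt/gt, *Ifi202b* was well above background in replicates 2 and 4, at −1.91 and −2.78, and not in replicates 1 and 3. The call was lost without WT replicate 2, 3, or 4 or without *Fcgr2b*-/- replicate 1 or 4.

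The differences among the lists were uneven. Of 12 output genes tested, such as chemokines and antiviral genes, 10 had higher means in *Fcgr2b*-/- than in WT, with a median of 0.99. Of 10 transcription factors, 9 did, with a median of 0.64. The medians were 0.04 for 17 DNA sensors and cofactors, 0.11 for 14 nucleases and RNA-DNA hybrid enzymes, −0.13 for 13 genes of cGAMP breakdown and transport, −0.06 for 30 genes of STING trafficking and modification, and 0.02 for 17 kinase scaffolds and partners. *Pld4*, a lysosomal nuclease of myeloid cells, was at 0.43, −1.65, −1.16, and 1.43 in *Fcgr2b*-/-, above all 4 WT arrays, and differed by 2.27 (SE 0.63, adjusted p = 0.685 by limma). *Ccl2*, the chemokine that draws monocytes, differed by 2.86 (SE 1.02) and was highest on *Fcgr2b*-/- replicates 1 and 4, at 4.12 and 3.19. The lowest moderated t belonged to *Copa* (−0.60), a coatomer subunit that returns STING from the Golgi, *Dnase1* (−1.42), a secreted DNase, and *Xrcc5* (−0.46), a Ku subunit that binds DNA ends.

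Between double-deficient and *Fcgr2b*-/- kidneys, 0 of the 113 genes were called, with 1 higher and 3 lower at an unadjusted p under 0.05, 3.54% of the list against 1.81% of all probes. The lowest were *Irf7* (−1.42, SE 0.50), the interferon-induced regulator of interferon genes, *Pld4* (−1.61, SE 0.63), and *Isg15* (−1.23, SE 0.51), a ubiquitin-like product of the response. The highest were *Dnase1* (1.57, SE 0.71), *Azi2* (0.40, SE 0.19), an adaptor of TBK1, and *Prkdc* (0.80, SE 0.41), a DNA-dependent kinase. *Dnase1* was at 4.03 and 5.75 in *Fcgr2b*-/- replicates 1 and 4 and between 6.90 and 8.50 on the other 14 arrays. The medians of the lists ran from −0.88 for the outputs and −0.62 for the transcription factors to 0.10 for cGAMP breakdown and transport.

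Averaged over *Fcgr2b* genotypes, *Sting* deficiency gave 0 of the 113 called and 1 lower at an unadjusted p under 0.05, or 0.885% of the list, close to the 0.716% of all probes. This was *Fen1* (−0.33, SE 0.15), a flap endonuclease, followed by *Sike1* (−0.33, SE 0.17), a suppressor of IKK epsilon, and *Zbp1* (−0.86, SE 0.50), a sensor of Z-form nucleic acid. The highest were *Trim56* (0.37, SE 0.22), a ubiquitin ligase, *Cyld* (0.22, SE 0.15), a deubiquitinase, and *Azi2* (0.19, SE 0.14), none called. Without *Sting* gt/gt replicate 4 the values were −0.35 for *Fen1*, −0.28 for *Sike1*, −0.70 for *Zbp1*, 0.22 for *Trim56*, 0.17 for *Cyld*, and 0.22 for *Azi2*.

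Promoter sequences are printed for *Samhd1*, which stood high with the interferon-inducible genes, and for *Tbk1* and *Enpp1*, which did not. They are the 250 bases before the transcript start on the minus strand of GRCm38.p6 (RefSeq), at chr2:157135097-157135346, chr10:121586795-121587044, and chr10:24712160-24712409. Capitals mark a match to the gamma-activated sequence TTCNNNGAA in *Samhd1* and to the kappa B consensus in *Enpp1*.

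Samhd1: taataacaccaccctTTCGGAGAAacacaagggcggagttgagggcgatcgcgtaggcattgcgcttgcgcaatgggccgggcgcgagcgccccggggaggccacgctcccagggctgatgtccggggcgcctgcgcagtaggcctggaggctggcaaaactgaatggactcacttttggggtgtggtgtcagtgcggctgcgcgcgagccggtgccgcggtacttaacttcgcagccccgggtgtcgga
Tbk1: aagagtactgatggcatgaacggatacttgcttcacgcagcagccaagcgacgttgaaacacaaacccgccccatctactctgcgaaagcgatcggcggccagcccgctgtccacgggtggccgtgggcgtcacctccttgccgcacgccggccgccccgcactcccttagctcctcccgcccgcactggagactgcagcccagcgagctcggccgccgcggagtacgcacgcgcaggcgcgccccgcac
Enpp1: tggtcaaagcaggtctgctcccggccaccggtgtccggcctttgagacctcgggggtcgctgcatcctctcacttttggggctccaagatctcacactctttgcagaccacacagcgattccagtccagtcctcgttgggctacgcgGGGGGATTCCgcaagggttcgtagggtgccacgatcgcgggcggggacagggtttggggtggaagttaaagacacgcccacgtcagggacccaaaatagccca

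Both strands were searched, and no match overlapped another. The third motif, GAAANNGAA, the core of the interferon-stimulated response element, was in none of these windows. The windows of *Cgas*, *Ikbke*, and *Trex1* overlap transcripts and are not printed. No window was at hand for *Sting1*, so its promoter was not searched. Those of *Cgas* and *Ikbke*, which stood high on the same arrays as *Samhd1*, held none of the 3 motifs, and of the 2 windows of *Trex1* one held a kappa B match. Of 32851 promoter windows of that length, 7.13% held GAAANNGAA, 7.02% held TTCNNNGAA, and 7.25% held the kappa B consensus. A match is a description of the letters only, and no binding was measured.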

How the data were processed

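Kidney RNA (100 ng per mouse) was labelled with Cy3 and hybridized to one-color Agilent arrays, and the authors extracted the images with Agilent Feature Extraction 11.0. The scanner files they deposited hold processed intensities, background-subtracted and not scaled between arrays. A deposited table of log2 values for these arrays, whose scaling is not given in the sources used here, served as an alternative. Spots that were controls or flagged as outliers did not enter, and a probe's spots were averaged. Probes were named by accession through a RefSeq table of GRCm38.p6, which differs from the build of the array (mm9), so no coordinates of genes or probes are given, and the promoter coordinates are those of that RefSeq table alone. A gene is given by its brightest probe. limma 3.58.1 (R 4.3.3, statmod 1.5.0) fitted a mean per genotype over all 16 arrays and was tested on simulated data, and tables were made with Python 3.11.15, pandas 2.3.3, and numpy 2.4.6. Of 56605 probes, 35628 were tested. An array had 28441 to 35564 probes well above background, and the number of mice limits precision.

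The labels do not say that a replicate number links mice. Over all 24 same-numbered pairs, arrays did not deviate together (11 correlated over 0.1, mean 0.015 against 0.003 for other numbers), so no block was used. Between WT and *Fcgr2b*-/-, however, replicates 1 to 4 correlated at 0.689, 0.602, −0.072, and 0.488. Between *Fcgr2b*-/- and double-deficient kidneys they correlated at −0.328, −0.477, −0.183, and −0.309. The members and gene lists were chosen with earlier results of these data known. Genes named besides the members are called pathway genes, the 3 highest and 3 lowest moderated t of the pathway lists in 3 contrasts, the 3 genes most correlated with each member, and *Fcgr2b*. Marker genes given as examples of a list, and *Cd79a*, were named after their values were seen. The alternatives were normexp, quantile, and median scaling, the deposited table, other filters, tests, and probe rules, blocks by slide, replicate number, or animal label, single slides, and each array left out. Taking the percentile over spots was chosen after seeing the data.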

Additional observations from a re-analysis of the deposited data

Results flagged for a closer look

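Of 44 groups of 4 arrays read over the 11 member probes, 4 held a single array far from the other 3 by Dixon's ratio (its gap to the nearest array over the range of the group, read at the 95% critical value), and chance alone flags about 1 in 20 groups. *Enpp1* was at 1.42 in WT replicate 2, with the other WT kidneys at 0.98 to 0.99 (ratio 0.971). Without that array, the difference between *Sting* gt/gt and WT was −0.17 in place of −0.27. *Samhd1*, by its brightest probe, was at 0.63 in WT replicate 2 (ratio 0.868). The second *Ikbke* probe, not well above background on any array, was at −6.91 in WT replicate 4 (ratio 0.897) and at −7.05 in *Sting* gt/gt replicate 2 (ratio 0.919).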

How the results depend on the processing

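Over 31 log2 differences of members and 470 recomputations other than leaving out an array, 456 kept their direction and none was called, with a lowest adjusted p of 0.222. Leaving out each array in turn kept 492 of 496. Single slides, which hold as few as 1 array of a group, gave most of the turns. Within slide 2 the difference was 0.36 (*Sting1*) and 0.074 (*Cgas*) for double-deficient minus *Fcgr2b*-/-, 0.053 for the *Sting1* interaction, 0.33 for *Sting1* averaged over *Fcgr2b* genotypes, 0.13 (*Tbk1*), −0.13 (*Trex1*), and −0.085 (*Samhd1*) for *Fcgr2b*-/- minus WT, and −0.049 (*Trex1*) for *Sting* gt/gt minus WT. Within slide 1, *Ikbke* was at 0.41 for *Sting* gt/gt minus WT. The *Ikbke* interaction, near 0, was 0.11 with quantile normalization, 0.14 with median scaling, 0.15 in the deposited table, 0.073 with slide as a block, 1.36 within slide 2, and −0.64 to 0.17 when single arrays were left out. The cause was not tested.

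Of the count results, the methods' Mann-Whitney test, unadjusted with a 2-fold difference, gave 1 member probe (*Ikbke*) in *Fcgr2b*-/- minus WT, where 0 were called, 2 pathway genes there in place of 1, and 1 in double-deficient minus WT in place of 0. The pathway count in *Fcgr2b*-/- minus WT was 0 with the adjusted Mann-Whitney test, with probes well above background on all arrays (which leave out *Ifi202b*), with only the groups compared, and within slide 1 or 2, and 0 to 1 when single arrays were left out. It was 1 in double-deficient minus WT with only the groups compared. For *Fcgr2b* deficiency averaged over *Sting* genotypes it was 1, and 0 on all-array probes and within slide 1 or 2. Median scaling moved the median of all probes to −0.21 in *Fcgr2b*-/- minus WT, −0.24 in *Sting* gt/gt minus WT, and 0.32 in the interaction. There the *Enpp1* difference between *Sting* gt/gt and WT was −0.52 and that of *Tbk1* −1.02.

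Over all groups the replicate numbers did not pair the arrays (correlations of deviations from −0.603 to 0.689 over 24 pairs, 5 of 16 arrays closest to their own number). The WT and *Fcgr2b*-/- arrays numbered 1, 2, and 4 did deviate together (0.689, 0.602, and 0.488). A fit with the number as a block called 0 member probes in each of the 7 contrasts and left the *Ikbke* difference between *Fcgr2b*-/- and WT at 1.26, not called.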
